A study of Homo sapiens with 6 samples.

Results

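The genes described here were the 41 heat shock protein and co-chaperone genes named by a fixed list of symbols, measured by RNA sequencing in HEK293T cells with and without the RNA demethylases ALKBH5 and FTO. HEK293T is an established human embryonic kidney cell line, and ALKBH5 and FTO are dioxygenases that remove N6-methyladenosine from RNA. The symbols were matched to gene identifiers through GENCODE release 29, without use of any measured value. They found 42 of the 58721 gene identifiers in the deposited table, since HSPA14 had 2. Of these, 38 genes had enough reads to be tested, among 14180 genes tested in all. The 3 genes CRYAB, DNAJA4 and DNAJB4 and the second HSPA14 identifier fell below the low-count filter.

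The study compared 3 libraries from double knockout cells, in which CRISPR/Cas9 had disrupted both ALKBH5 and FTO, with 3 libraries from wild type HEK293T cells. The labels describe the 3 replicates of each group as biologically independent. They do not say how many knockout clones were used. The cells of both groups were grown in DMEM with fetal calf serum under ordinary culture conditions, and the labels named no heat or other stress treatment. All lysates contained Triton X-100 and cycloheximide, an inhibitor of translation, and were cleared by centrifugation. The labels call the RNA cytoplasmic. Ribosomal RNA was depleted, poly(A) RNA was not selected, and in vitro transcribed GFP and FLuc RNAs were added as spike-ins. The wild type columns of the count table carry the name HEK293G6, which the labels do not explain. They were read as wild type, the only genotype left once the knockout columns were matched, and nothing in the labels says whether these cells were the direct parent of the knockout.

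Total gene counts were 5923328 to 6433469 per double knockout library and 5634648 to 7551825 per wild type library. A count of 0 allowed a level of up to 0.407 to 0.545 CPM, where CPM is counts per 1000000 counts of the scaled library. FTO averaged 56.1 ± 4.21 CPM in double knockout cells and 105 ± 7.83 CPM in wild type cells (SD, n = 3 each), and ALKBH5 averaged 186 ± 0.599 CPM and 245 ± 10.3 CPM in the same order. Both targeted genes were therefore lower but still counted, and whole-gene counts do not show whether the remaining transcripts were intact. Summed markers of kidney and HEK293 cells were 453 to 468 CPM in double knockout and 334 to 365 CPM in wild type libraries, with PAX8 at 0 in all. Of these 9 markers, 8 were tested, 6 rose and 1 fell. Summed markers of other cell types were low: 10.3 to 12.3 CPM in double knockout against 16.7 to 19.7 CPM in wild type for 6 fibroblast markers (3 tested, all 3 lower, COL1A2 at 0). The 6 haematopoietic markers summed to 2.16 to 3.20 CPM in double knockout and 2.04 to 2.20 CPM in wild type libraries, with CD3E at 0, and the 4 endothelial markers to 0.999 to 2.40 CPM and 0.726 to 1.63 CPM in that order.

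Heat shock proteins are molecular chaperones that bind unfolded protein chains. Small heat shock proteins hold unfolded clients without ATP, and HSP70 binds and releases them in cycles of ATP hydrolysis that J-domain proteins start and nucleotide exchange factors reset. HSP90 receives partly folded kinases, steroid receptors and other clients, with co-chaperones that load clients or set the pace of its ATP cycle. Many of these genes are switched on together in stressed cells by the transcription factor HSF1, which binds inverted repeats of the pentamer nGAAn in their promoters.

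The letters of such repeats were searched in RefSeq promoter windows (GRCh38.p14), to show which of the windows carry them. Windows held the 250 bases upstream of a gene start and were found for 33 of the 41 genes, as 48 windows. A match to 2 units was GAANNTTC or TTCNNGAA, and a match to 3 units was GAANNTTCNNGAA or TTCNNGAANNTTC. Both strands were covered, and a match to 3 units contains a match to 2. At least 2 units were found in 16 of the 48 windows, from 16 genes, against 11.6% of all 35116 windows. Matches to 3 units were found in 6 windows, those of HSPA8, HSP90AA1, HSP90AB1, CHORDC1, DNAJB6 and HSPD1, against 0.441% of all windows. Among the genes with a window but no match were HSPH1, BAG3 and STIP1. A match is a description of the letters and does not show that a factor binds there or that the gene responds to heat. The 30 bases around a match are given below for the small heat shock proteins, the inducible and constitutive HSP70 genes, both HSP90 genes, CHORDC1, DNAJB1 and HSPD1, because the results turn on these genes. Capitals mark the matching letters.
HSPB1, chr7:76302480-76302509, plus strand: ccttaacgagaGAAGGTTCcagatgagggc
HSPB8, chr12:119178832-119178861, plus strand: tcatcacctccGAATATTCctgtgacagga
HSPA1A, chr6:31815426-31815455, plus strand: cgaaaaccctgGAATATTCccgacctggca
HSPA1B, chr6:31827622-31827651, plus strand: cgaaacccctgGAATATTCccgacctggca
HSPA8, chr11:123062171-123062200, minus strand: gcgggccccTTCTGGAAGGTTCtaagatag
HSP90AA1, chr14:102087112-102087141, minus strand: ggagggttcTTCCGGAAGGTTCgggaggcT
HSP90AB1, chr6:44247822-44247851, plus strand: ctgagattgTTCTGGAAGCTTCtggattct
CHORDC1, chr11:90223084-90223113, minus strand: accgGAAAATTCGCGAAGGTTCCTGAAacg
DNAJB1, chr19:14518426-14518455, minus strand: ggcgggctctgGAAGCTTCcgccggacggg
HSPD1, chr2:197500061-197500090, minus strand: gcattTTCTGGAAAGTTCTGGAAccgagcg
In HSPB1 the printed stretch lay 193 to 164 bases upstream of the RefSeq start, and in HSPB8 it lay 99 to 70 bases upstream. RefSeq and GENCODE starts can differ, and the stretches of HSPB8, HSPA8, HSP90AA1, CHORDC1 and HSPD1 overlap an exon of at least 1 GENCODE gene, on either strand. Those of HSPB1, HSPA1A and HSPA1B lie outside the GENCODE span of their gene, and the other printed stretches lie inside it, downstream of its outermost start. The single capital at the end of the HSP90AA1 stretch is the first letter of a further match that runs past it.

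Between the groups, HSPB1 and HSPB8 and the secreted chaperone CLU were several-fold higher in double knockout cells, while most genes of the HSP70, HSP90 and J-domain classes differed by less than 1.5-fold. Of the 38 tested genes, 29 passed the test (edgeR's quasi-likelihood test, adjusted p below 0.05), or 76.3%, where 57.1% of all tested genes passed. The 29 were 10 higher genes and 19 lower genes, against 28.6% of all tested genes higher and 28.5% lower. At 1.5-fold or more, 5 genes were called, or 13.2%, against 17.8% of all tested genes. The 3 genes HSPB1, HSPB8 and CLU were at least 2-fold higher, where 4.63% of all tested genes were, and the remaining 2 were lower (HSPA14 and HSPA2). None was called at least 2-fold lower, where 1.37% of all tested genes were. The other 24 called genes, 7 higher and 17 lower, lay within 1.5-fold. The double knockout and wild type libraries did not overlap in 28 of the 38 genes, and in 60.6% of all tested genes. The median size of the log2 fold change was 0.20 over the 38 genes and 0.25 over all tested genes. With libraries scaled to the added spike-ins in place of gene counts, the median log2 fold change of all tested genes moved to -0.10 from 0.01, and 3 of the genes were called higher (HSPB1, HSPB8 and CLU) and 17 lower, beside 2133 higher and 4236 lower among all tested genes. In RNA from whole cultures, fewer cells that express a gene and less RNA of it per cell cannot be told apart.

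**Figure D1:**
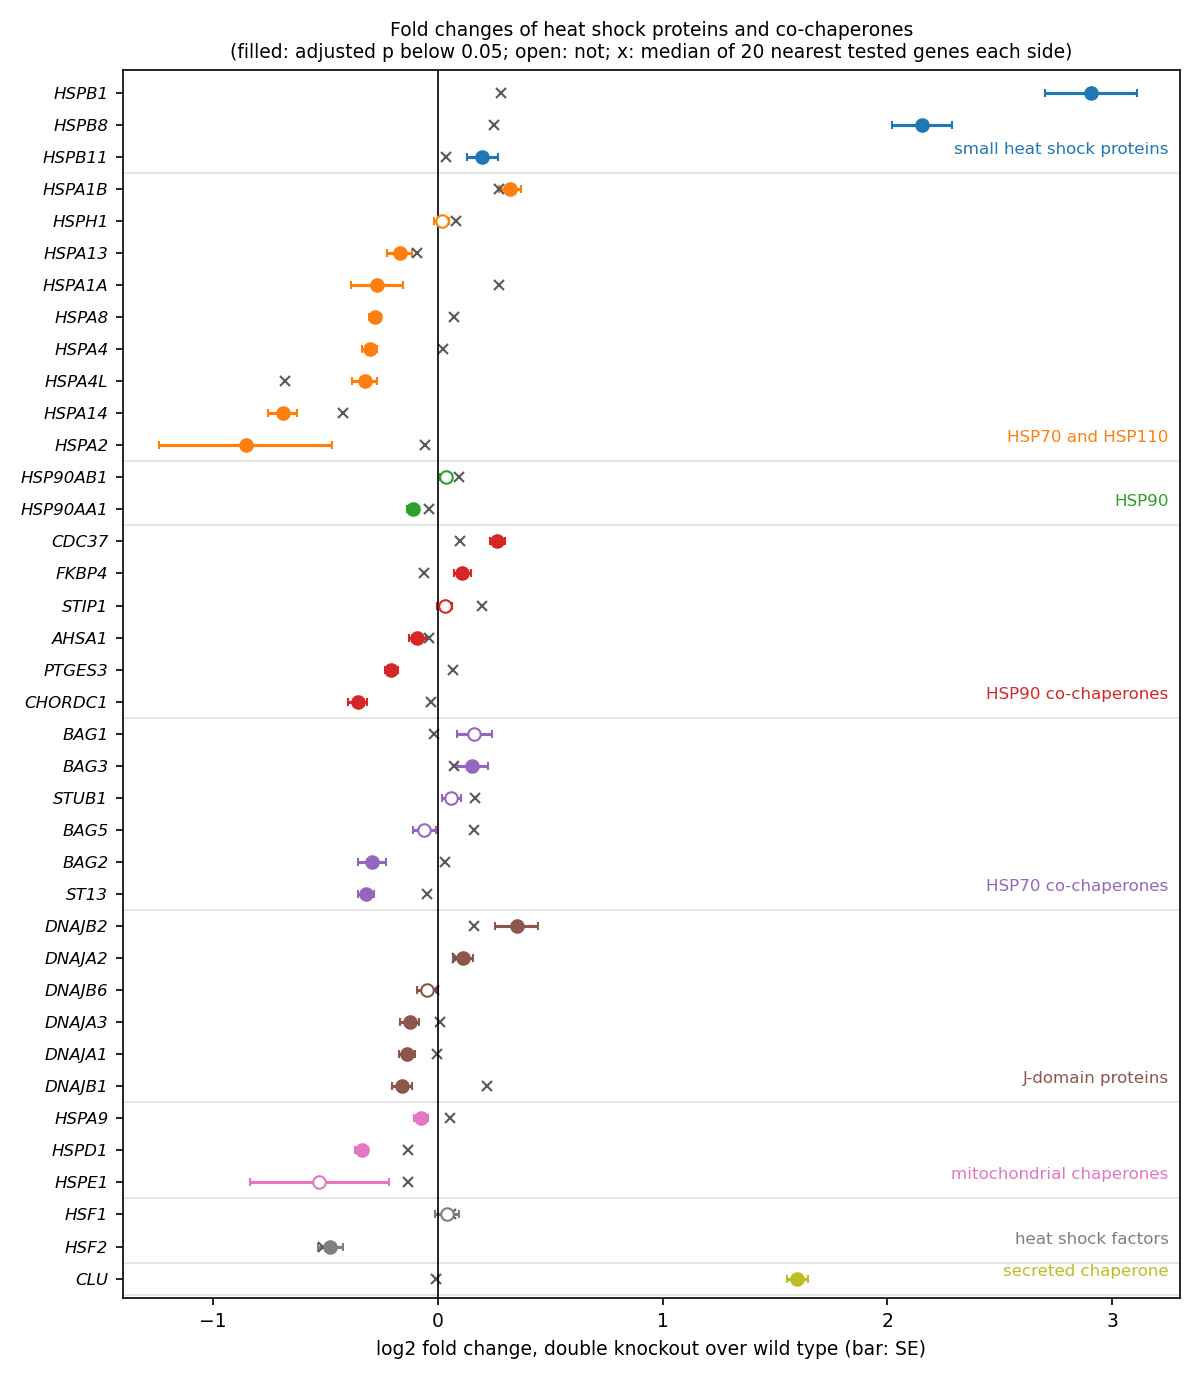
Log2 fold change (double knockout over wild type) of each tested gene by class, with bars for the standard error, filled points for genes that passed the test, open points for the others, and a cross at the median of the nearest tested genes. HSPB1 (2.90), HSPB8 (2.15) and CLU (1.60) stand far above 0, and the HSP70, HSP90, co-chaperone and J-domain genes lie between -0.85 and 0.35, where with spike-in scaling HSPH1, HSP90AB1, STIP1, STUB1 and HSF1 turn to the other side of 0.

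The largest rises in the list were those of the small heat shock protein genes HSPB1 and HSPB8. HSPB1 (HSP27, ENSG00000106211.8, hg38 chr7:76302544-76304295, plus strand) holds unfolded proteins and associates with actin filaments. Its level was 14.99, 14.0 and 14.9 CPM in the double knockout libraries and 2.06, 1.49 and 2.36 CPM in the wild type libraries. The groups were far apart, and every double knockout library lay above every wild type library. The counts behind these levels were 90, 91 and 93 reads in double knockout against 15, 11 and 13 reads in wild type libraries. The log2 fold change was 2.90 (SE 0.20, adjusted p = 7.09e-38, edgeR), or 7.48-fold, and it stayed between 2.72 and 3.03 when each library was left out. HSPB1 shared 5.84% of its 50-base transcript words with other annotated transcripts, and the 40 nearest tested genes on chromosome 7 had a median log2 fold change of 0.28, with 21 of them higher and 3 lower.

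HSPB8 (HSP22, ENSG00000152137.6, hg38 chr12:119178642-119221131, plus strand) works with the co-chaperone BAG3 in delivering misfolded proteins to autophagy. It stood at 28.0, 28.2 and 23.5 CPM in double knockout libraries, against 6.60, 5.84 and 5.26 CPM in wild type libraries. Double knockout replicate 3 was the lowest of its group and still well above all wild type libraries. In reads, HSPB8 had 168, 183 and 147 in double knockout libraries and 48, 43 and 29 in wild type libraries. The rise was 4.45-fold (log2 2.15, SE 0.13, adjusted p = 4.64e-47, edgeR), between 2.09 and 2.24 on the log2 scale with each library left out. Of its 40 neighbours on chromosome 12, 23 were higher and 3 lower, with a median of 0.25. The HSPB1 and HSPB8 changes exceeded their neighbour medians by 2.62 and 1.90 on the log2 scale.

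HSPB11 carries a small heat shock protein name but is known as the intraflagellar transport protein IFT25, so its place in the class is by name. It had 53.0, 53.7 and 54.6 CPM in double knockout and 45.6, 46.6 and 48.8 CPM in wild type libraries. The libraries did not overlap, but the difference was small (log2 0.20, SE 0.07, adjusted p = 0.00961, edgeR), and the call was lost in at least 1 alternative. CRYAB, the alpha B-crystallin chaperone of lens and muscle, had 0 counts in all 6 libraries. The 3 measured genes listed in this class were all called higher, with a median log2 fold change of 2.15. Their summed level was 94.9 ± 1.69 CPM in double knockout and 54.9 ± 1.37 CPM in wild type cells, and HSPB11 made up most of the wild type sum.

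CLU, or clusterin, is a secreted chaperone that holds unfolded proteins outside cells much as small heat shock proteins do inside. Its gene (ENSG00000120885.21) lies at hg38 chr8:27596917-27615031 on the minus strand. CLU had 193, 179 and 193 CPM in the double knockout libraries and 61.7, 66.7 and 57.0 CPM in the wild type libraries. All double knockout libraries lay above all wild type libraries, at 3.03-fold (log2 1.60, SE 0.05, adjusted p = 3.22e-131, edgeR). The median of its 40 neighbours on chromosome 8 was -0.01, with 11 higher and 12 lower, and it was 0.08 over the nearest 10 on each side.

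**Figure D2:**
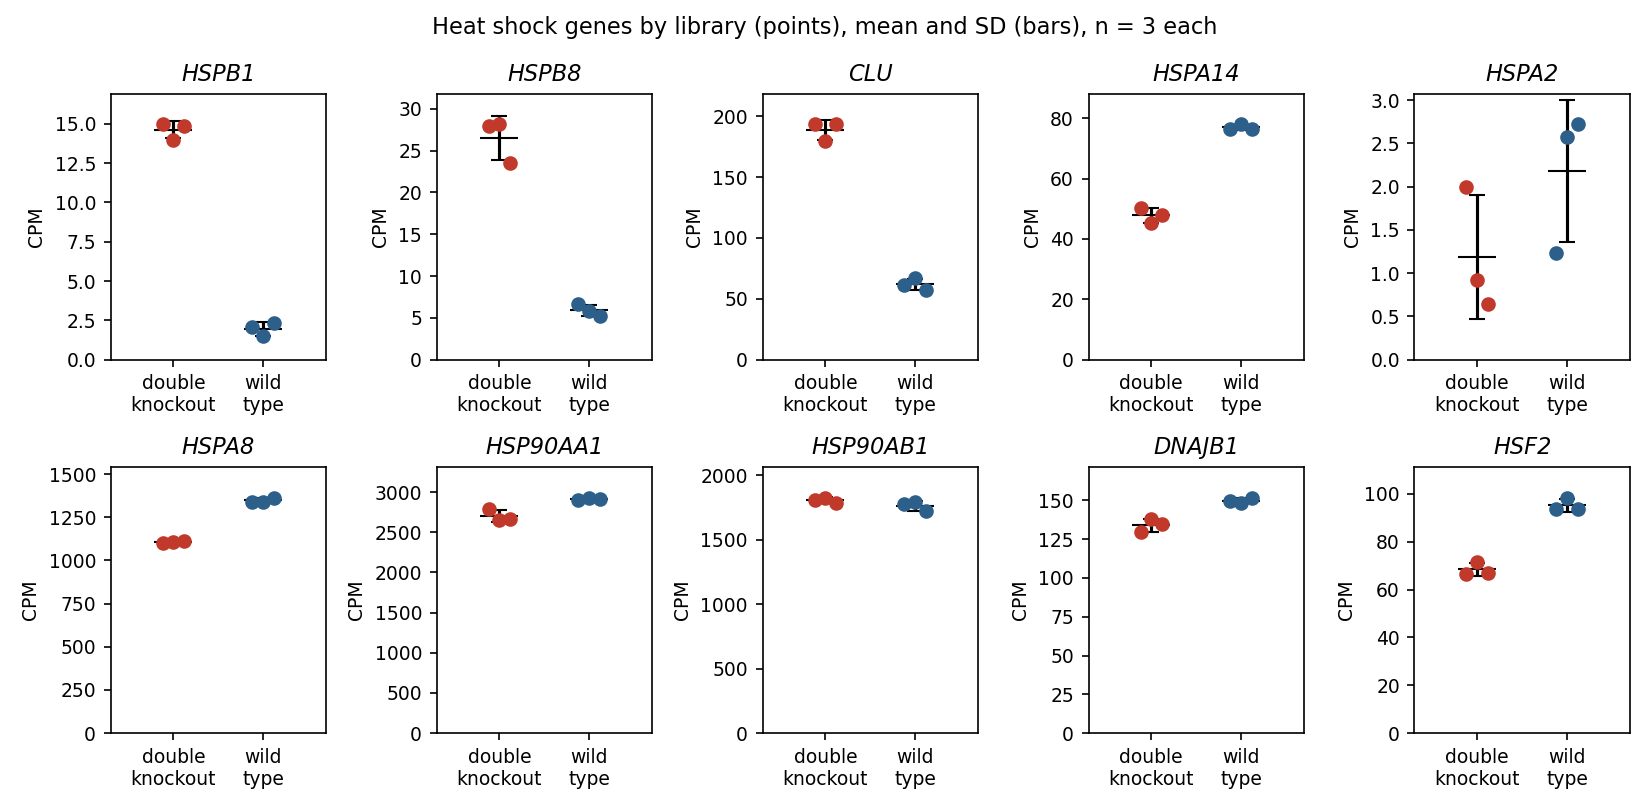
Level in CPM of 10 genes in each library (points), with the group mean and SD (bars, n = 3 each), double knockout on the left of each panel and wild type on the right. HSPB1, HSPB8 and CLU are higher in every double knockout library, HSPA14, HSPA8, HSP90AA1, DNAJB1 and HSF2 are lower in every double knockout library, and HSPA2 and HSP90AB1 overlap.

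Of 9 tested HSP70 and HSP110 genes, 7 were called lower, 1 was higher and 1 did not pass, where 28.5% of all tested genes were lower. The median log2 fold change was -0.28, and only HSPA14 and HSPA2 fell by more than 1.5-fold. The calls of HSPA13, HSPA1A and HSPA2 were each lost in at least 1 alternative. The summed level of the class was 2142 ± 9.57 CPM in double knockout and 2506 ± 42.2 CPM in wild type cells. HSPA8 (HSC70), the constitutive HSP70 and by far the most abundant of the class, had 1103, 1109 and 1115 CPM in double knockout libraries and 1340, 1337 and 1363 CPM in wild type libraries. Each group was tight and the groups did not overlap (log2 -0.28, SE 0.03, adjusted p = 2.11e-22, edgeR). The median of its neighbours was 0.07.

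The 2 heat-inducible HSP70 genes, HSPA1A and HSPA1B, lie close together on chromosome 6 and encode nearly the same protein. Their annotated coding sequences (1923 bases without the stop codon) differed at 4 bases, were 99.8% identical and shared an identical run of 1709 bases. The 60 bases below, coding bases 1846 to 1905 from GENCODE release 29, hold 2 of the 4 differences, in capitals, and show how little sequence separates reads of these genes.
HSPA1A, chr6:31817602-31817661, plus strand: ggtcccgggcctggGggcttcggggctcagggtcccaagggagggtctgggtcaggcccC
HSPA1B, chr6:31829796-31829855, plus strand: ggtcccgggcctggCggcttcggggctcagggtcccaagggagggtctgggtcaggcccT
Of the 50-base words of their transcripts, 71.3% in HSPA1A and 73.5% in HSPA1B also occurred in other genes, so the division of reads between them is uncertain. HSPA1B had 121, 109 and 107 CPM in double knockout and 85.0, 94.2 and 90.2 CPM in wild type libraries, with no overlap (log2 0.32, SE 0.05, adjusted p = 2.45e-09, edgeR). It shared 36.5% of its exon bases, on the same strand, with the gene AL671762.1, which had 330 reads over the double knockout and 251 over the wild type libraries.

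HSPA1A had 13.5, 13.1 and 19.4 CPM in double knockout libraries and 18.6, 18.2 and 18.7 CPM in wild type libraries. Double knockout replicate 3 stood above all wild type libraries, so the groups overlapped, and the call was marginal (log2 -0.27, SE 0.12, adjusted p = 0.0381, edgeR). Without that library the log2 fold change was -0.48 (adjusted p = 0.00132), and without any 1 of the other 5 libraries the call was lost, down to -0.16 without double knockout replicate 2 (adjusted p = 0.298). Summed, the pair had 135, 122 and 126 CPM in double knockout and 104, 112 and 109 CPM in wild type libraries, with means of 128 ± 6.26 and 108 ± 4.48 CPM. All double knockout sums lay above all wild type sums (exact two-sided permutation over libraries, p = 0.1, which is the lowest p possible with 3 against 3). The 40 nearest tested genes had a median of 0.27, with 22 higher and 1 lower. HSPA6, an HSP70 gene known to be expressed almost only under strong stress and named here after its values were seen, had 0 counts in all 6 libraries.

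HSPA14 fell the most among the HSP70 genes with adequate counts. It encodes the ribosome-associated HSP70L1 (ENSG00000187522.15, hg38 chr10:14838164-14871741, plus strand), which acts with a J-domain partner on nascent chains. HSPA14 had 50.1, 45.2 and 48.0 CPM in double knockout libraries and 76.4, 78.1 and 76.4 CPM in wild type libraries, with a wide gap between the groups (log2 -0.69, SE 0.06, adjusted p = 3.91e-24, edgeR). Of its 40 neighbours on chromosome 10, 30 were also lower, with a median of -0.42. Exons of other annotated genes, CDNF among them, overlapped 17.4% of its exon bases. Its shared 50-base words, 15.9% of all its words, were shared only with the second HSPA14 identifier, which had 0 counts. The part of the neighbourhood in this result was not tested.

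HSPA2, the HSP70 known for its role in sperm development, was barely expressed, with 12, 6 and 4 reads in double knockout and 9, 19 and 15 reads in wild type libraries. The levels were 2.00, 0.923 and 0.640 CPM against 1.24, 2.58 and 2.72 CPM, and the groups overlapped. The call (log2 -0.85, SE 0.39, adjusted p = 0.0477, edgeR) was lost without double knockout replicate 2 or 3 and without wild type replicate 2 or 3. Without double knockout replicate 3 the log2 fold change was -0.56 (adjusted p = 0.256), and without double knockout replicate 1 it was -1.43 (adjusted p = 0.00829). HSPA13, an HSP70-like protein of the endoplasmic reticulum, fell slightly (log2 -0.17, SE 0.06, adjusted p = 0.00536, edgeR).

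The HSP110 proteins are exchange factors that eject ADP from HSP70. HSPA4 fell to 387 ± 10.2 CPM in double knockout cells, against 478 ± 17.9 CPM in wild type cells (SD, n = 3 each), a log2 fold change of -0.30 (SE 0.03, adjusted p = 4.77e-19, edgeR). HSPA4L fell by a like amount, with 71.8 ± 0.472 CPM in double knockout and 89.9 ± 1.07 CPM in wild type cells (log2 -0.32, SE 0.06, adjusted p = 4.22e-08). Its neighbours on chromosome 4 had a lower median, -0.68, with 35 of 40 lower, whereas the neighbours of HSPA4 had a median of 0.02. HSPH1, the most heat-responsive of these exchange factors, had 322, 319 and 326 CPM in double knockout and 315, 310 and 331 CPM in wild type libraries. The libraries were interleaved and the gene did not pass (log2 0.02, SE 0.03, adjusted p = 0.675, edgeR).

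The HSP90 genes were the most highly expressed per transcript length and moved little. In TPM (a level per exon length, scaled to a total of 1000000 in each library), HSP90AB1 had 2081 ± 37.6 in double knockout and 1972 ± 66.4 in wild type cells, and HSP90AA1 had 1771 ± 85.3 and 1855 ± 24.7 in the same order. HSP90AA1, the more heat-responsive isoform, had 2795, 2654 and 2663 CPM in double knockout libraries and 2907, 2931 and 2916 CPM in wild type libraries. It was lower in every double knockout library (log2 -0.11, SE 0.03, adjusted p = 4.73e-05, edgeR). HSP90AB1, the constitutive isoform, had 1809, 1825 and 1782 CPM in double knockout and 1773, 1793 and 1718 CPM in wild type libraries, which overlapped (log2 0.04, SE 0.03, adjusted p = 0.238). HSP90AA1 made up 60.7, 59.3 and 59.9% of the reads of the pair in double knockout libraries and 62.1, 62.0 and 62.9% in wild type libraries. The difference of the means was -2.41 percentage points, with the groups apart in all libraries (exact two-sided permutation over libraries, p = 0.1, again the lowest possible).

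**Figure D3:**
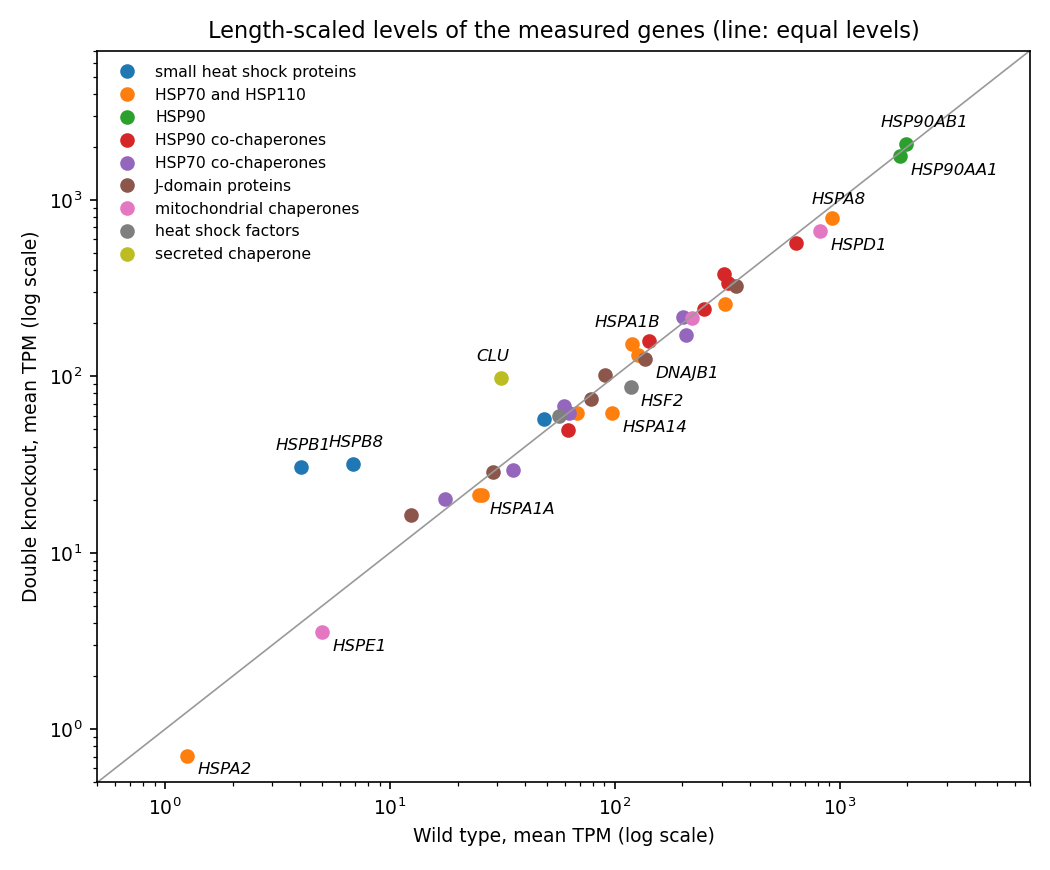
Mean level per transcript length (TPM, log axes, n = 3 each) of each tested gene in wild type cells (horizontal) and double knockout cells (vertical). Points are coloured by class, and the line marks equal levels. HSP90AB1, HSP90AA1, HSPA8 and HSPD1 lead in both groups. HSPB8 (31.9 TPM in double knockout against 6.89 TPM in wild type cells) and HSPB1 (30.8 against 4.02 TPM) have low wild type levels and lie farthest from the line.

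Placed on the per-length scale, the large rises were of genes with low levels. Among the 38 tested genes, HSPB1 ranked below all but HSPA2 in wild type cells, at 4.02 ± 0.862 TPM, and reached 30.8 ± 1.79 TPM in double knockout cells (SD, n = 3 each). HSPB8 had 31.9 ± 3.06 TPM in double knockout and 6.89 ± 0.849 TPM in wild type cells. CLU had 98.0 ± 6.23 TPM in double knockout and 31.2 ± 2.75 TPM in wild type cells. HSPA8, for comparison, stood at 785 ± 16.6 TPM in double knockout and 926 ± 2.04 TPM in wild type cells.

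Co-chaperones of HSP90 changed in both directions, with 2 of 6 higher, 3 lower and 1 not passing, and a class median of -0.03. CDC37, which brings kinases to HSP90, rose to 336 ± 4.99 CPM in double knockout cells, against 280 ± 7.58 CPM in wild type cells (log2 0.27, SE 0.03, adjusted p = 3.74e-13, edgeR). With spike-in scaling the CDC37 call was lost (log2 0.16, adjusted p = 0.117, edgeR). CHORDC1 (morgana), which binds HSP90, fell to 155 ± 2.25 CPM in double knockout cells, against 199 ± 11.2 CPM in wild type cells (log2 -0.36, SE 0.04, adjusted p = 1.76e-16). PTGES3 encodes p23, which stabilises the closed state of HSP90, and it fell to 563 ± 9.96 CPM in double knockout cells, against 649 ± 6.50 CPM in wild type cells (log2 -0.21, adjusted p = 6.09e-11). The immunophilin FKBP4 was slightly higher (log2 0.11, adjusted p = 0.0069) and the ATPase activator AHSA1 slightly lower (log2 -0.09, adjusted p = 0.0313), and both calls were lost in at least 1 alternative. STIP1 (HOP), which bridges HSP70 and HSP90, did not pass (log2 0.03, adjusted p = 0.423).

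Of the 6 co-chaperones of HSP70, 1 was called higher, 2 were called lower and 3 did not pass. ST13 (HIP), which slows the release of clients from HSP70, fell to 207 ± 6.20 CPM in double knockout cells, against 259 ± 12.2 CPM in wild type cells (log2 -0.32, adjusted p = 7.21e-16, edgeR). The BAG proteins are exchange factors for HSP70. BAG2 fell (log2 -0.29, adjusted p = 1.49e-05), and 44.2% of its exon bases overlapped RAB23, which had 725 reads in double knockout and 948 reads in wild type libraries. BAG3, the partner of HSPB8, differed little between the groups where HSPB8 was several-fold higher. It had 54.3 ± 3.09 CPM in double knockout and 49.1 ± 2.27 CPM in wild type cells, with overlapping libraries and a marginal call (log2 0.15, SE 0.07, adjusted p = 0.0462). BAG1 (log2 0.16, adjusted p = 0.064), BAG5 (log2 -0.06, adjusted p = 0.317) and the ubiquitin ligase STUB1, or CHIP (log2 0.06, adjusted p = 0.223), did not pass. STUB1 shared 42.4% of its exon bases with JMJD8.

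The J-domain proteins, which deliver clients to HSP70 and stimulate its ATPase, showed small changes of both signs: 2 of 6 tested genes were higher, 3 were lower and 1 did not pass, with a median of -0.09. DNAJB1 (HSP40), the most heat-responsive of them, had 130, 138 and 135 CPM in double knockout libraries and 149, 148 and 152 CPM in wild type libraries. It was lower in every double knockout library (log2 -0.16, SE 0.04, adjusted p = 0.000692, edgeR), while its neighbours on chromosome 19 had a median of 0.22 with 22 of 40 higher. DNAJA1, a farnesylated partner of HSC70, fell to 257 ± 4.08 CPM in double knockout cells, against 282 ± 2.43 CPM in wild type cells (log2 -0.14, adjusted p = 0.000405). DNAJB2, best known from neurons, rose to 28.2 ± 0.515 CPM in double knockout cells, against 21.9 ± 2.06 CPM in wild type cells (log2 0.35, SE 0.10, adjusted p = 0.000714). With spike-in scaling the DNAJB2 call was lost (log2 0.24, adjusted p = 0.11, edgeR).

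DNAJA2 was slightly higher (log2 0.11, adjusted p = 0.0181, edgeR) and DNAJA3, a mitochondrial member, slightly lower (log2 -0.12, adjusted p = 0.0065). Both calls were lost in at least 1 alternative, and with spike-in scaling DNAJA2 stood at log2 0.007 (adjusted p = 0.96, edgeR). DNAJB6, which keeps polyglutamine proteins from aggregating, did not pass (log2 -0.05, adjusted p = 0.401). DNAJB4, below the filter, had 1, 7 and 1 reads in double knockout and 9, 6 and 6 reads in wild type libraries. DNAJA4 had 0, 1 and 1 reads in double knockout and none in wild type libraries.

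The list also held chaperones of mitochondria, which fold proteins imported into the matrix. HSPD1 (HSP60) fell to 825 ± 22.2 CPM in double knockout cells, against 1042 ± 10.0 CPM in wild type cells (SD, n = 3 each), with all libraries apart (log2 -0.34, SE 0.03, adjusted p = 3.38e-29, edgeR). HSPA9 (mortalin) was slightly lower (log2 -0.08, adjusted p = 0.0239), and the call was lost in at least 1 alternative. HSPE1, the HSP10 lid of HSP60, had only 14, 11 and 13 reads in double knockout and 22, 19 and 18 reads in wild type libraries and did not pass (log2 -0.53, SE 0.31, adjusted p = 0.135). It overlaps HSPD1 and the read-through gene HSPE1-MOB4, which had 13 and 34 reads in that order, and it shared 22.7% of its transcript words with other genes, so its count may not represent its mRNA.

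**Figure D4:**
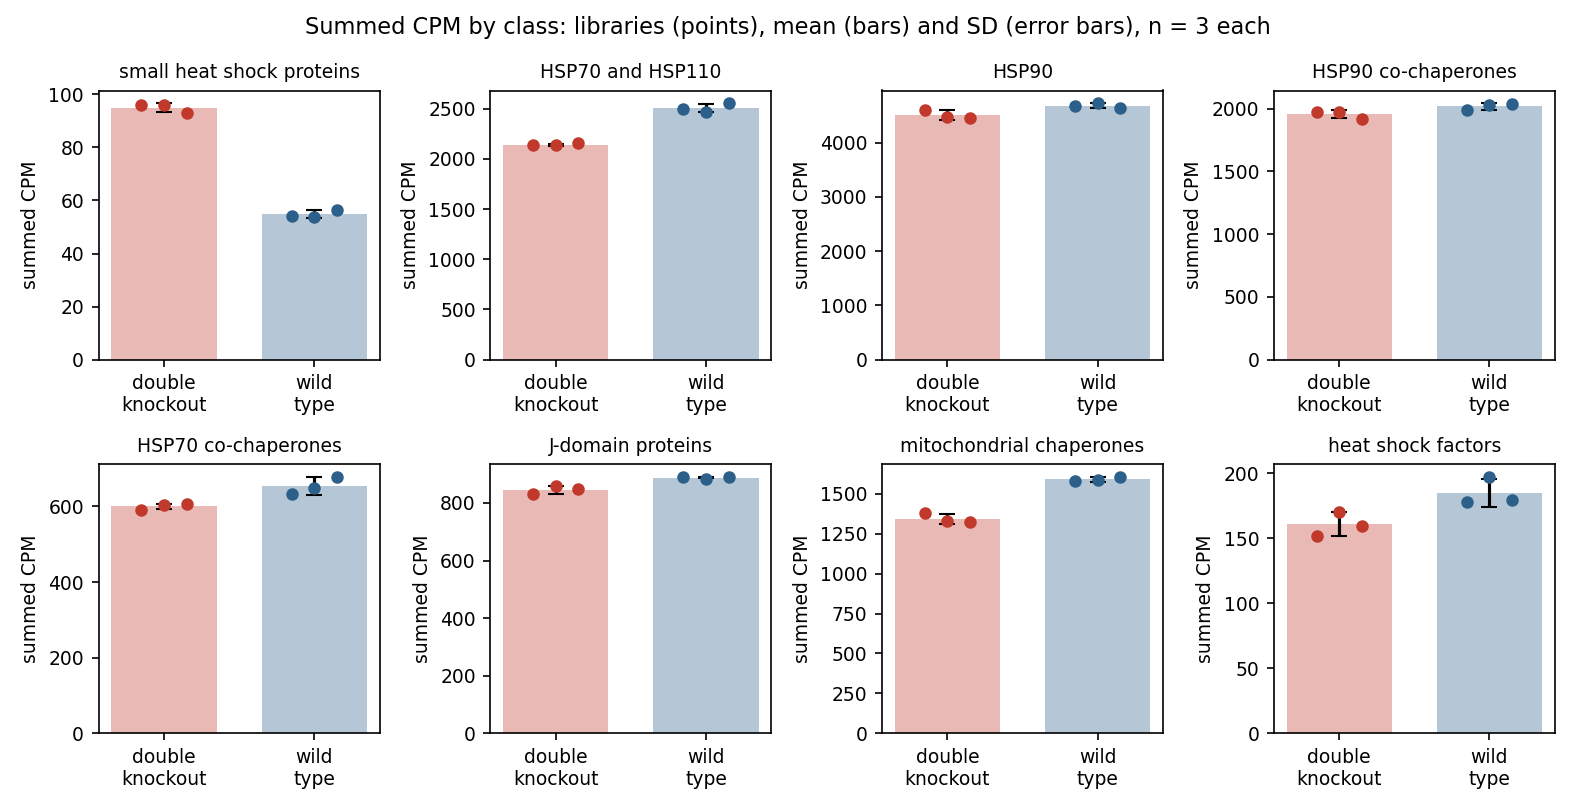
Summed level in CPM of each class of genes in every library (points), with columns for the mean and error bars for the SD (n = 3 each), double knockout on the left and wild type on the right. The small heat shock proteins (94.9 against 54.9 CPM) are higher in double knockout libraries, the HSP70 and HSP110 genes (2142 against 2506 CPM) and mitochondrial chaperones (1344 against 1591 CPM) are lower, and the HSP90 genes sum to 4510 against 4679 CPM.

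Of the 2 heat shock factors, HSF2 fell and HSF1 did not pass the test. HSF1, the main activator of the heat shock response, had 85.6, 98.8 and 92.6 CPM in double knockout and 84.1, 98.8 and 85.7 CPM in wild type libraries, which overlapped fully (log2 0.04, SE 0.05, adjusted p = 0.523, edgeR). These values concern HSF1 mRNA and not the activity of the protein. HSF2, a related factor that can bind DNA together with HSF1, had 66.4, 71.7 and 67.0 CPM in double knockout libraries and 93.5, 98.4 and 93.9 CPM in wild type libraries. It was lower in every double knockout library (log2 -0.48, SE 0.06, adjusted p = 6.29e-16), and its neighbours on chromosome 6 had a median of -0.51, with 27 of 40 lower. The part of the neighbourhood in the HSF2 result was not tested.

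Set side by side, the class medians of the log2 fold change were 2.15 for small heat shock proteins, -0.28 for HSP70 and HSP110, -0.04 for HSP90 and -0.09 for J-domain proteins, against 0.01 for all tested genes. With spike-in scaling, these 4 medians were 2.04, -0.39, -0.14 and -0.19, against -0.10 for all tested genes. The classes hold few genes, and the difference between them was not tested. Of the 16 genes with a match to heat shock element letters, 14 were tested, of which 3 were called higher, 9 were called lower and 2 did not pass. Over all 38 tested genes of the list, 10 were higher and 19 lower, and over all tested genes 28.6% were higher and 28.5% lower. Whether genes with a match differed from those without was not tested. HSPB1, HSPB8 and HSPA1B were higher. HSPA8, HSP90AA1, CHORDC1, DNAJB1, HSPD1, HSPA4L, BAG2 and DNAJA1 were lower, as was HSPA1A by its marginal call with an uncertain division of reads. HSP90AB1 (log2 0.04) and DNAJB6 (log2 -0.05) did not pass. With spike-in scaling the HSPA1B call was lost and HSP90AB1 turned to -0.07.

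Other chaperone genes are given for context by list, with all calls from the same edgeR test against the 57.1% of all genes called. The counts cover whole lists, and the genes named from each list are the called ones with the largest changes. Of 14 genes of the cytosolic chaperonin TRiC and its partner prefoldin, 3 rose, 3 fell and 8 did not pass. The TRiC subunit CCT7 rose (log2 0.30) and the subunits CCT8 and CCT6A fell (log2 -0.51 and -0.43), as the prefoldin subunit PFDN2 rose (log2 0.21). Of 12 further HSP70, HSP110 and small heat shock protein genes, 3 were tested. HSPA5 (BiP), the HSP70 of the endoplasmic reticulum, rose (log2 0.18, neighbour median 0.33). HSPA12A was called lower (log2 -0.15, neighbour median -0.03).

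Of 34 tested J-domain proteins outside the list, 8 rose, 7 fell and 19 did not pass. DNAJC15, a protein of the mitochondrial inner membrane, rose to 16.3 ± 1.41 CPM in double knockout cells, against 3.98 ± 1.17 CPM in wild type cells (log2 2.00, SE 0.17, adjusted p = 3.16e-28, edgeR). DNAJC22 rose to 33.2 ± 3.23 CPM in double knockout cells, against 9.08 ± 1.35 CPM in wild type cells (log2 1.88, SE 0.11, adjusted p = 1.37e-48). The median of the neighbours was 0.11 for DNAJC15 and 0.10 for DNAJC22. DNAJC13, which acts in endosomal sorting, fell (log2 -0.97, neighbour median -0.57), and so did DNAJB14 of the endoplasmic reticulum membrane (log2 -0.70, neighbour median -0.68).

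Of 16 further co-chaperones of HSP70 and HSP90, 8 rose, 5 fell and 3 did not pass. The myosin chaperone UNC45A (log2 0.49) and BAG6, which sorts membrane proteins before insertion (log2 0.44), rose, while the cyclophilin PPID (log2 -0.45, neighbour median -0.54) and BAG4 (log2 -0.36) fell. Of 6 tested further targets of heat shock factors, 2 rose, 3 fell and 1 did not pass. The collagen chaperone SERPINH1 (HSP47, log2 0.32) rose, and DEDD2 (log2 -0.44) and the ubiquitin gene UBB (log2 -0.20) fell. Of 8 further mitochondrial chaperone genes, some of them also counted among the further J-domain proteins, 1 rose, 3 fell and 4 did not pass. GRPEL1, an exchange factor of mitochondrial HSP70, rose (log2 0.28, neighbour median 0.43), and the protease subunit CLPX (log2 -0.16) and GRPEL2 (log2 -0.12) were called lower.

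The chromosomal neighbours of the 29 called genes were compared with them, and their values are given here for some of the genes. The median of the nearest tested genes, up to 20 on each side, had the same sign as the gene itself in 19 of the 29, and it was 0.2 or more in size in 8. These were 40 genes for most, but 29 for HSPA13 and 36 for FKBP4. For HSF2 and HSPA4L the neighbour median was as low as the gene's own change or lower with 10, 20 or 40 genes on each side. At these widths, in order, the neighbour medians were -0.20, -0.13 and -0.16 for HSPD1. For HSPA13 they were -0.18, -0.09 and -0.07. HSPA8, HSPA4, CHORDC1, PTGES3 and ST13 fell with neighbour medians that lay between -0.09 (ST13) and 0.12 (HSPA8) over the same widths. The median for HSPA4 turned to -0.06 with 40 on each side.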

How the data were processed

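RNA was sequenced from 3 double knockout and 3 wild type libraries. Per the submitters' processing notes, the authors used cutadapt 2.10, STAR 2.7.6a and featureCounts with the hg38 build. The deposited values were raw counts per gene, with no normalization. Whether counting used strand, and how reads that align at several places were treated, is not given in the sources used here, so overlapping and near-identical genes have uncertain counts. All 58721 identifiers matched GENCODE release 29. The table also held 4 spike-in entries.

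Counts were compared in R 4.3.3 with edgeR 4.0.16 (filterByExpr defaults, minimum count 10 and minimum total count 15, TMM scaling, robust glmQLFit, glmQLFTest without covariates), and two-sided p-values were adjusted by Benjamini and Hochberg over 14180 genes with a threshold of 0.05. Scripts were tested on simulated data. CPM used TMM-scaled library sizes and TPM the union exon length. Limits for 0 are 3 counts and cover counting error only. The common biological coefficient of variation was 2.4%, so small differences passed. Alternatives were DESeq2 1.42.0, limma 3.58.1 voom, other scalings and filters, a replicate block and each library left out. Every tested gene of the list was named, values per library were given for HSPB11 and further genes after they were seen, and of each other list up to 2 called genes per direction with the largest change were named, except for a gene that is not reported here. The genes and lists were chosen with earlier results of these data known.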

Additional observations from a re-analysis of the deposited data

Results flagged for a closer look

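A spike-in RNA named Rluc, which the labels do not list among the added RNAs, had 271 to 378 counts in each of the 6 libraries. It drew attention because it lies outside the measured genes and far above the 3 counts that a count of 0 allows. GFP, which the labels do list, had 285 to 384 counts per library. Rluc entered no value of the heat shock genes except as an alternative scaling chosen after seeing the data.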

How the results depend on the processing

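Of the 29 calls, 19 (6 higher, 13 lower) held in all 12 alternatives other than spike-in scaling, and 16 held in every alternative (HSPB1, HSPB8 and CLU higher, 13 genes lower). The 10 calls lost in at least 1 of the 12 were AHSA1, BAG3, DNAJA2, DNAJA3, FKBP4, HSPA13, HSPA1A, HSPA2, HSPA9 and HSPB11. With each library left out, 8 to 10 of the genes were higher and 15 to 18 lower, and DESeq2 called 7 higher and 13 lower. The replicate numbers did not pair the libraries (correlations of the deviations 0.0106, 0.0166 and 0.0085, with 0 of 6 libraries closest to their own number), and with a replicate block 10 genes were higher and 18 lower, HSPA2 being lost (adjusted p = 0.0508). Spike-in counts were few, down to 31 for FLuc, which limits that scaling.

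With spike-in scaling, and then with Rluc added to it (an alternative chosen after seeing the data), 3 and 5 of the genes and 2133 and 2406 of all genes were higher. The counts of higher genes on the other lists were then 1 and 1 for TRiC and prefoldin, 0 and 0 for the further HSP70 and small heat shock protein genes, 5 and 5 for the further J-domain proteins, 5 and 5 for the further co-chaperones, and 0 and 0 for the further mitochondrial chaperones, with 1 higher factor target with spike-in scaling alone. DESeq2 called 5 further J-domain proteins higher, 0 further mitochondrial chaperones lower and 0 further HSP70 genes lower, as did the filter at a mean CPM of 5 for the last. With each library left out, these counts were 5 to 9, 1 to 3 and 0 to 1.

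Class medians with spike-in scaling, and then with Rluc, were -0.39 and -0.37 for HSP70 and HSP110, -0.14 and -0.13 for HSP90, -0.14 and -0.12 for HSP90 co-chaperones, -0.107 and -0.0919 for HSP70 co-chaperones, -0.19 and -0.18 for J-domain proteins, -0.44 and -0.43 for mitochondrial chaperones and -0.33 and -0.31 for heat shock factors. The small heat shock proteins had 2.04 with spike-in scaling. Without a low-count filter HSP70 and HSP110 had -0.29, and with a mean CPM of 5 they had -0.26 and mitochondrial chaperones -0.19. With each library left out, the median was -0.31 to -0.27 for HSP70 and HSP110 and -0.0286 to 0.0183 for HSP70 co-chaperones. The genes that changed sign, none of them called, had log2 fold changes of -0.0892 and -0.0738 (HSPH1), -0.0702 and -0.0550 (HSP90AB1), -0.0768 and -0.0627 (STIP1), -0.0439 and -0.0289 (STUB1), and -0.0671 and -0.0512 (HSF1) with spike-in scaling and with Rluc added. With each library left out, HSPH1 spanned -0.0063 to 0.0447 and HSF1 -0.011 to 0.12. The neighbour medians depended on the width: with 10 genes on each side 22 of the 38 moved by more than their SD between replicate libraries, and with 40 again 22. The cause of these changes was not tested.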
